A study of Mus musculus with 62 samples.

Results

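The ventral striatum (VS) of mice killed 4 h after a single injection of ethanol was compared with that of mice given saline, in 6 of the 62 poly(A) RNA sequencing libraries of the series. The libraries were taken by their group labels, with no measured value in the rule: the saline libraries were numbered 2, 4 and 6 and the ethanol libraries 2, 3 and 5, each from 1 mouse. All were adult male mice of the inbred strain C57BL/6J, 8 to 10 weeks old. Saline mice received 1 intraperitoneal injection of saline, and ethanol mice 1 injection of 2 g/kg ethanol as a 20% solution in saline. Libraries of chronically injected mice, of the same strain, sex and age, served to class genes and as a second comparison. Cortex libraries of the same acute saline mice also served to class genes. The chronically injected mice received 10 daily injections of saline or of the same ethanol dose and were killed 4 h after the last. The question was which genes and transcript isoforms differ in the VS after acute ethanol, and how much of the difference lies in genes that are more abundant in the cortex. The tissue was cored from frozen coronal slices, so the edge of a core can hold some of what surrounds the VS. Gene counts summed to 10142093, 11025467 and 16443179 in saline mice 2, 4 and 6 and to 18106625, 11012260 and 15216021 in ethanol mice 2, 3 and 5. The biological coefficient of variation, the spread between mice of a group beyond counting error, was 0.174.

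The VS holds the nucleus accumbens, where dopamine from the midbrain and glutamate from cortex, hippocampus and amygdala converge on GABAergic spiny projection neurons. These neurons carry D1 dopamine receptors with dynorphin and substance P, or D2 receptors with enkephalin. Injections and ethanol both raise circulating corticosterone, whose receptor binds DNA as a dimer and drives genes such as *Fkbp5*, a co-chaperone that in turn lowers the receptor's affinity for the hormone. Neuronal activity induces immediate early genes such as *Fos* and *Npas4*, partly through the cyclic AMP response element, and metallothioneins are driven by zinc and by glucocorticoids.

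The libraries had the markers of striatum. The 8 shared markers of spiny projection neurons (*Ppp1r1b*, *Rgs9* and others) summed to 5895, 4141 and 3756 CPM (counts scaled to a common library total) in saline mice 2, 4 and 6 and to 6877, 5311 and 3254 in ethanol mice 2, 3 and 5, which is 531 to 1120% of their level in the saline cortex libraries. The groups overlapped, 0 of the 8 genes had an unadjusted p below 0.05, and the median log2 fold change was 0.07. Direct pathway markers (*Drd1*, *Tac1*, *Pdyn* and others) had a median of 0.17 and indirect pathway markers (*Drd2*, *Adora2a*, *Penk* and others) of 0.22, with 0 of 7 and 0 of 6 below that p. Without ethanol mouse 2, which has the highest sum, these 3 medians turned to -0.23, -0.233 and -0.122, so their direction rests on that mouse. Over all 20032 genes tested the median was 0.00499, and edgeR gave 3.23% of them an unadjusted p below 0.05 with a higher value after ethanol and 4.08% with a lower one. All 3 ethanol mice were above all 3 saline mice for 5.9% of genes and below them for 6.61%. These shares are the background against which each gene list is read.

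The libraries also differed in markers of pallial neurons, and the difference lay between the treatment groups. The 9 markers of pallial excitatory neurons, the glutamatergic cells of the cortex, summed to 584, 876 and 1154 CPM in saline mice 2, 4 and 6 and to 314, 145 and 167 CPM in ethanol mice 2, 3 and 5. Every saline library was above every ethanol library, with saline mouse 6 highest. Relative to the saline cortex libraries these sums were 24.2, 36.3 and 47.8% in saline mice and 13.0, 6.01 and 6.91% in ethanol mice. The cortex came from another library kit and sequencing platform, so these percentages also compare kits and platforms. All 9 markers were lower at an unadjusted p below 0.05, with a median log2 fold change of -2.76 (-3.83 without ethanol mouse 2, when edgeR called 7 of the 9, all lower). The one with the most counts, *Slc17a7* (the vesicular glutamate transporter), stood at 266, 499 and 681 CPM in saline and at 98.5, 10.99 and 18.3 CPM in ethanol, and *Emx1* had a count of 0 in ethanol mouse 3. At an unadjusted p below 0.05, 4 of 7 markers of deep cortical layers were lower (median -1.44, and -2.04 without ethanol mouse 2), and 2 of 5 of claustrum and endopiriform neurons (median -0.61, and -0.443). Without that mouse edgeR called 4 and 2 of them, all lower. These 2 lists are not specific to the cortex libraries, since 1 of the 7 and 0 of the 5 genes were at least 2-fold higher there than in VS. The deep layer sums were 184, 165 and 202% of the cortex level in saline mice and 154, 124 and 97.4% in ethanol mice, and the claustrum sums 212, 176 and 273% and 150, 122 and 109%. Of 4 upper layer markers 3 had a negative log2 fold change, but at an unadjusted p below 0.05 none was lower and 1, *Lamp5*, was higher. Their median was -0.08, and 0.138 without ethanol mouse 2. In bulk tissue, fewer cells of a type and less RNA per cell cannot be told apart. Because the pallial difference coincides with the groups, uneven coring of the tissue and an effect of ethanol cannot be told apart either, here or in the falls of cortex-higher genes that follow.

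Ethanol mouse 2 stood apart from the other 2 ethanol mice. Its pallial sum was the highest of its group and its red blood cell sum, 979 CPM, was above the 318 to 541 CPM of the other libraries, while the myelin sum, 5578 CPM, was at the saline level of 5397 to 5793 CPM where ethanol mice 3 and 5 had 7601 and 7713 CPM. Values without it are therefore given beside each list median whose sign it decided, and counts of calls without it beside the main counts.

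**Figure D1:**
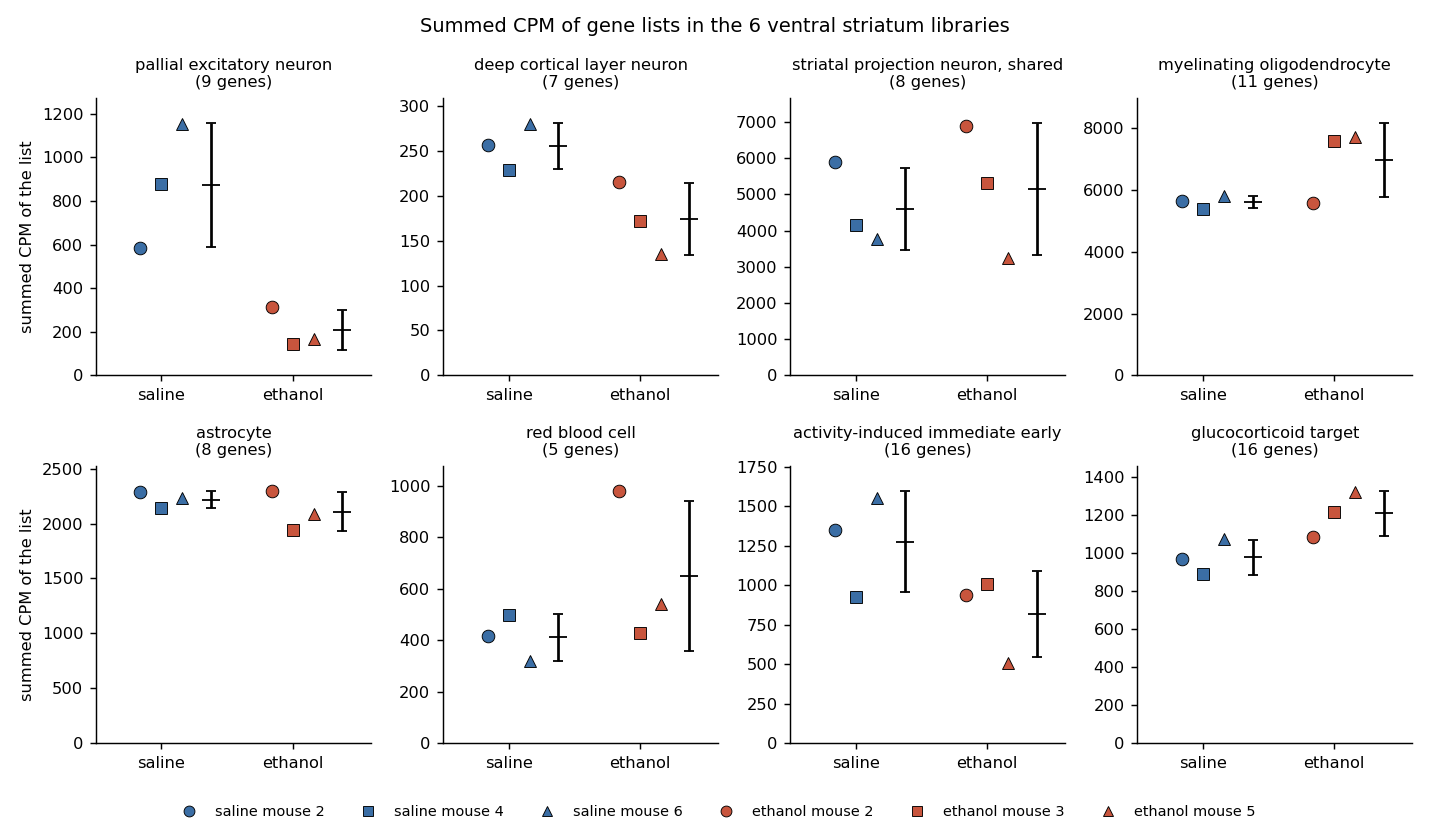
Summed TMM-normalized CPM (y axis, from 0) of 8 gene lists in the 3 saline (blue) and 3 ethanol (red) libraries, 1 point per mouse, with the mean ± SD of each group as a bar. The pallial and deep layer sums do not overlap between the groups, the projection neuron sums do, and ethanol mouse 2 (red circle) sits with saline for myelin and above all others for red blood cells.

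To separate genes with a high cortical level from the rest, CPM in the 6 saline cortex libraries was set against that in 6 VS libraries. These VS libraries were of mice injected daily, 3 with saline and 3 with ethanol, and are outside the comparison. The cortex libraries were of saline mice injected daily and of the same acute saline mice as in the comparison. A gene was classed as cortex-higher where its cortex CPM was at least 2-fold its CPM in these VS libraries. By this rule 1749 genes, 8.73% of those tested, were cortex-higher and 18283 were other genes. Because 3 of the VS libraries came from ethanol mice, a gene lowered by chronic ethanol is more readily classed as cortex-higher.

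EdgeR called 8 genes at an FDR below 0.1 (0.0399% of all tested), and all 8 fell. Of these, 5 were cortex-higher (0.286% of that class) and 3 were other genes (0.0164%). With the VS level taken from the 3 acute saline libraries instead, 4 of the 8 were cortex-higher and 4 were other genes. DESeq2, with 0.943% of genes called, also called each of the 8. When each mouse was left out in turn, all 8 remained called without saline mouse 2 and without ethanol mouse 2, *Sel1l3* also without ethanol mouse 5, and none in the other fits, where the highest edgeR FDR of each gene was 0.592 to 0.796.

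*Neurod2* (ENSMUSG00000038255; chromosome 11, 98216241 to 98220474, GRCm39), a transcription factor of cortical excitatory neurons, had the largest fall among the 8 calls. It stood at 11.8, 22.0 and 32.6 CPM in saline mice 2, 4 and 6 and at 2.89, 0.360 and 2.02 CPM in ethanol mice 2, 3 and 5. The log2 fold change was -3.57 (SE 0.51, edgeR FDR 0.0983), and ethanol mice had 7.94% of the saline mean. *Scube1* (ENSMUSG00000016763; chromosome 15, 83489200 to 83609222), a secreted protein with CUB and EGF-like domains, read 13.2, 31.5 and 27.5 CPM in saline and 3.81, 3.06 and 4.05 CPM in ethanol (log2 fold change -2.71, SE 0.31, edgeR FDR 0.0383). *Frzb* (ENSMUSG00000027004; chromosome 2, 80242314 to 80277969), which binds and inhibits Wnt ligands, read 4.95, 12.1 and 9.07 CPM in saline and 1.502, 0.901 and 1.39 CPM in ethanol (log2 fold change -2.75, SE 0.37, edgeR FDR 0.0983). For all 3 genes every saline library was above every ethanol library, and saline mouse 2 was the lowest of its group, as it was for the pallial markers.

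The remaining cortex-higher calls moved less. *Sel1l3* (ENSMUSG00000029189; chromosome 5, 53264425 to 53371269) fell from 25.0, 28.1 and 33.2 CPM to 9.94, 9.37 and 12.5 CPM (log2 fold change -1.44, SE 0.16, edgeR FDR 0.0383). *Etl4* (ENSMUSG00000036617; chromosome 2, 19914591 to 20815335) fell from 55.3, 65.3 and 82.9 CPM to 34.8, 32.1 and 27.7 CPM (log2 fold change -1.11, SE 0.16, edgeR FDR 0.0983). Each has a small spread in ethanol, 1.64 and 3.57 CPM (SD, n = 3). Of the 5 cortex-higher calls, all but *Scube1* overlap a gene on the other strand (*Gm33099* and *Gm71805* for *Neurod2*, *Gm74782* for *Frzb*, *Gm30464* for *Sel1l3* and *Gm13362* for *Etl4*). The cortex kit keeps no strand, so for these 4 genes reads of the partner may add to the cortex level that set the class.

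The 3 called genes outside the cortex-higher class also fell. *Nr4a2* (ENSMUSG00000026826; chromosome 2, 56996842 to 57014015), an orphan nuclear receptor that is both an activity-induced gene and a marker of claustrum and endopiriform neurons, read 36.0, 23.6 and 72.6 CPM in saline and 8.20, 3.60 and 4.24 CPM in ethanol (log2 fold change -3.02, SE 0.43, edgeR FDR 0.0983). *Pcsk5* (ENSMUSG00000024713; chromosome 19, 17409683 to 17814996), a protease that activates hormone and growth factor precursors, read 13.9, 14.1 and 22.4 CPM in saline and 4.85, 3.15 and 5.31 CPM in ethanol (log2 fold change -1.91, SE 0.26, edgeR FDR 0.0983). *B3galt2* (ENSMUSG00000033849; chromosome 1, 143516402 to 143530352), a galactosyltransferase of glycan synthesis, had the tightest groups, 31.3, 37.0 and 35.1 CPM against 16.3, 13.2 and 16.3 CPM (log2 fold change -1.17, SE 0.13, edgeR FDR 0.0383). Saline mouse 6, highest in pallial markers, was also highest for *Nr4a2* and *Pcsk5* but not for *B3galt2*. With the cortex-higher genes left out of the fit, edgeR called 1 gene. The part of the pallial difference in these falls was not tested.

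**Figure D2:**
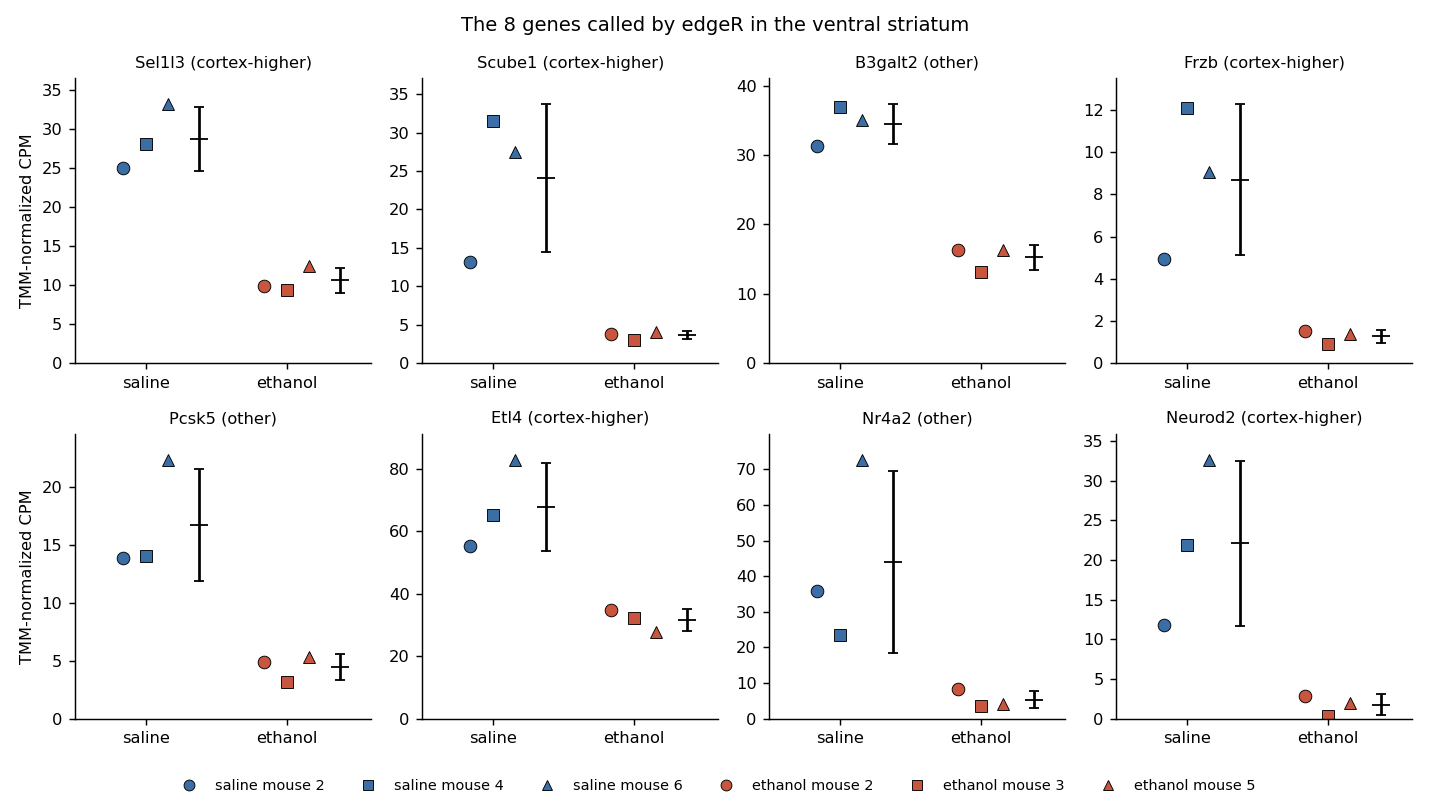
TMM-normalized CPM (y axis, from 0) of the 8 genes called by edgeR, 1 point per mouse in saline (blue) and ethanol (red), with the mean ± SD of each group as a bar. In every panel the 3 ethanol points lie below the 3 saline points, and 5 of the 8 genes are cortex-higher.

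Genes more abundant in the cortex than in the chronic VS libraries were more often lower after acute ethanol. Among cortex-higher genes 16.1% were lower and 1.43% higher at an unadjusted p below 0.05, with a median log2 fold change of -0.165 and 63.5% of genes below 0. Among the other genes 2.93% were lower and 3.41% higher, with a median of 0.0116. The share of lower genes was 0.687% among the 291 genes with less than 0.25 of their VS level in the cortex, and 192 of the 1129 genes at 2 to 4 times were lower. The share of higher genes ran the opposite way, from 18.9% to 1.42%. The order did not hold throughout: beyond 8-fold, 11.7% of 266 genes were lower, and their median was -0.0737 (quartiles -0.5 and 0.333), above the -0.183 and -0.191 of the bins from 2 to 4 and from 4 to 8 times. Genes share libraries, so this order describes these 6 libraries and has no p. The chronic VS level under the class and the bins includes ethanol mice. For genes that fell after chronic ethanol as well, the order can therefore be partly built in, and that part was not tested.

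**Figure D3:**
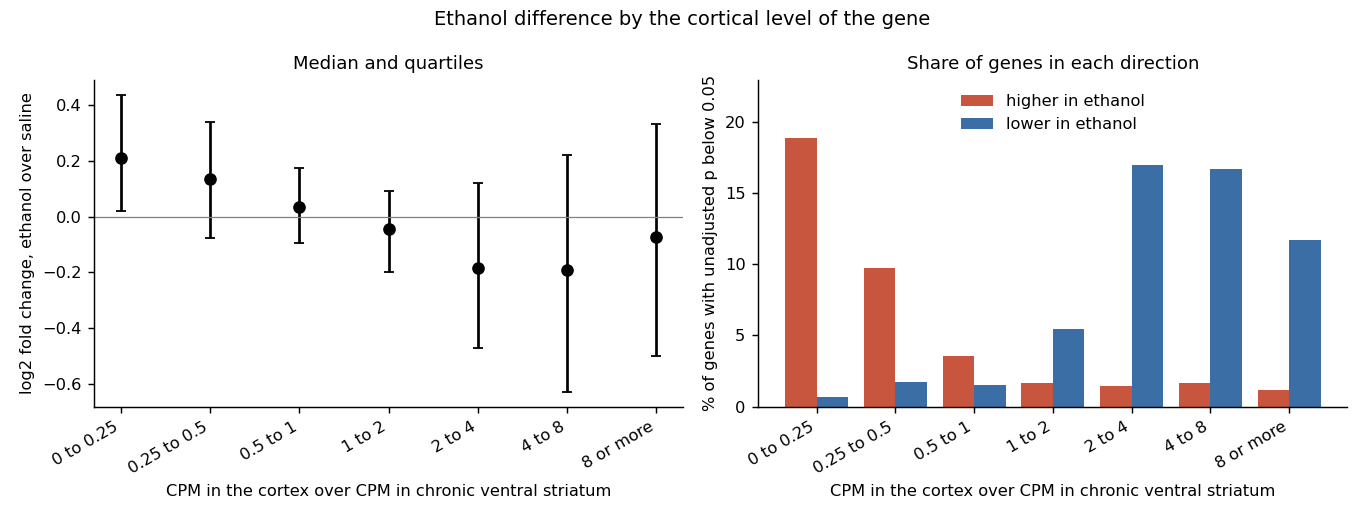
Ethanol difference of 20032 genes binned by their CPM in the saline cortex over that in chronic VS libraries (x axis). Left, median and quartiles of the log2 fold change, which go from 0.21 in the lowest bin to -0.19 at 4 to 8 times and back to -0.07 beyond 8 times. Right, the share of genes in each bin with an unadjusted p below 0.05, higher (red) or lower (blue) after ethanol.

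Without ethanol mouse 2, edgeR called 290 of 19533 genes (1.48%), 146 higher and 144 lower. Of the higher calls 3 were cortex-higher and 143 were other genes, and of the lower calls 75 were cortex-higher and 69 were other. With all 6 mice and the low-count filter no gene passed edgeR's threshold with a higher value, so the higher genes that follow did not pass.

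Among other genes, those nearest to a call with higher values were led by *2610035D17Rik*, a long noncoding RNA gene (chromosome 11, 112934701 to 113092666). It read 9.31, 8.60 and 9.19 CPM in saline and 15.7, 17.4 and 17.8 CPM in ethanol (log2 fold change 0.91, SE 0.14, edgeR FDR 0.123, DESeq2 FDR 0.00190). *Camk1g* (ENSMUSG00000016179; chromosome 1, 193028654 to 193052533), a calcium- and calmodulin-dependent kinase, read 35.8, 38.5 and 44.2 CPM in saline and 58.9, 73.1 and 67.8 CPM in ethanol (log2 fold change 0.75, SE 0.12, edgeR FDR 0.130, DESeq2 FDR 0.000395). Ethanol mouse 2 was the lowest of its group in both. Genes outside the lists were named only if their groups did not overlap, which in this direction holds for 6.15% of other genes, so that the lack of overlap is no result about them. *Mfsd2a*, a lysophospholipid transporter of brain endothelium, *Cpne2*, a calcium-dependent phospholipid-binding protein, *Prkg2*, a cyclic GMP-dependent kinase, *Clcn5*, a chloride-proton exchanger, and *Sema3f*, a secreted guidance protein, followed, with log2 fold changes of 0.65, 0.60, 0.80, 0.73 and 0.56 and edgeR FDRs of 0.175 to 0.296.

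Of the other genes with lower values, *Hs3st2*, a heparan sulfate sulfotransferase, *Cwh43*, *Ntng2*, a netrin-G adhesion protein, *Btg2* and *Npsr1*, the neuropeptide S receptor, came next after the calls, with log2 fold changes of -1.75, -2.92, -1.87, -1.26 and -2.86 and edgeR FDRs of 0.123 to 0.130. *Ntng2* shares exons with *6530402F18Rik* on the same strand, and pairs there were counted for both. Among cortex-higher genes *Smim43*, *Sox5* and *Tbr1*, of which the last is a transcription factor of deep layer cortical neurons, had log2 fold changes of -3.23, -1.08 and -2.95 (edgeR FDR 0.123 for each). *Sox5* also overlaps genes on the other strand, *Gm66879* and *Sox5os1*.

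Some genes classed as cortex-higher had higher values after ethanol. *Lamp5*, a membrane protein of upper layer and neurogliaform neurons, read 67.2, 81.4 and 55.1 CPM in saline and 113, 113 and 92.4 CPM in ethanol (log2 fold change 0.65, SE 0.15, edgeR FDR 0.285, DESeq2 FDR 0.0192). *Smim1* read 6.14, 8.23 and 7.98 CPM in saline and 12.0, 13.7 and 13.4 CPM in ethanol (log2 fold change 0.80, SE 0.17, edgeR FDR 0.248). *Tmem252*, *Fuz*, *Rab11bos1*, *Lyl1*, *A230103J11Rik* and *Mettl5* followed in the same direction, with edgeR FDRs of 0.494 to 0.623. These too were named among the 3.26% of cortex-higher genes that were higher without overlap. All of these but *Lamp5* overlap a gene on the other strand (*Lrrc47* for *Smim1*, *Gm56664* for *Tmem252*, *Ap2a1* for *Fuz*, *Rab11b* for *Rab11bos1*, *Nfix* for *Lyl1*, *Tnpo2* for *A230103J11Rik* and *Ssb* for *Mettl5*). As for the calls above, in the cortex their reads cannot be told apart from those of the partner, which bears on their class. *A230103J11Rik* stood at 35.1 CPM in saline cortex and 10.4 CPM in chronic VS, *Fuz* at 56.0 and 16.5 CPM, and *Lyl1* at 7.97 and 2.00 CPM.

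Many activity-induced genes had lower values after ethanol. Of 16 immediate early genes, 9 were lower at an unadjusted p below 0.05, 0 were higher, and all 16 had a negative log2 fold change (median -0.80, and -0.83 without ethanol mouse 2). Their sums overlapped, at 1347, 928 and 1554 CPM in saline mice 2, 4 and 6 and 939, 1005 and 509 CPM in ethanol mice 2, 3 and 5, so that ethanol mice 2 and 3 were above saline mouse 4 and ethanol mouse 5 was lowest. *Fos*, a subunit of the AP-1 transcription factor, read 54.3, 34.0 and 56.0 CPM in saline and 14.0, 22.2 and 20.2 CPM in ethanol (log2 fold change -1.36, SE 0.22, edgeR FDR 0.130, DESeq2 FDR 2.18e-06). *Btg2*, an antiproliferative regulator of mRNA decay, read 30.5, 24.0 and 30.8 CPM in saline and 8.43, 12.6 and 14.8 CPM in ethanol (log2 fold change -1.26, SE 0.20, edgeR FDR 0.130). *Npas4*, a transcription factor induced by calcium entry, read 45.7, 32.5 and 39.4 CPM in saline and 22.2, 24.6 and 15.9 CPM in ethanol (log2 fold change -0.91, SE 0.18, edgeR FDR 0.190). The groups did not overlap for these 3 genes and for *Ier2*, 4 of 16 against 6.61% of all genes in that direction. Of the 4, *Fos* and *Ier2* were cortex-higher, a class in which that share was 15.3%, and *Btg2* and *Npas4* were among other genes, where it was 5.79%. Without ethanol mouse 2, edgeR called 3 of the 16, all lower. *Ier2*, *Fosl2*, *Arc*, *Fosb*, *Nr4a1* and *Dusp1* were also lower, with log2 fold changes of -1.05, -0.99, -0.86, -0.85, -0.74 and -0.49, while *Egr1*, with the largest share of the list's counts, did not reach an unadjusted p of 0.05. Of the 16 genes 3, *Fos*, *Arc* and *Ier2*, were cortex-higher by the chronic VS level, and this class depends on that choice. *Fos* stood at 33.7 CPM in saline cortex, 14.9 CPM in chronic VS and a mean of 48.1 CPM in acute saline VS. Against the acute saline level it was therefore not higher in the cortex. *Arc* stood at 291, 85.4 and 188 CPM. The pallial markers moved the same way as the list. Their part in these values was not tested.

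Glucocorticoid targets lay on the other side. Of 16, 9 were higher at an unadjusted p below 0.05 and 0 lower, with a median log2 fold change of 0.57. Without ethanol mouse 2 the median was 0.68 and edgeR called 5, all higher. *Fkbp5* (ENSMUSG00000024222; chromosome 17, 28618068 to 28736498) read 52.4, 53.9 and 51.1 CPM in saline and 75.2, 65.2 and 94.9 CPM in ethanol (log2 fold change 0.58, SE 0.14, edgeR FDR 0.297, DESeq2 FDR 0.0400). The saline mice lay within a few CPM of each other and every ethanol mouse was above them. *Sgk1*, a kinase that regulates ion transport, read 71.0, 51.8 and 93.7 CPM in saline and 70.6, 149 and 126 CPM in ethanol (log2 fold change 0.67, SE 0.27, edgeR FDR 0.625), so that ethanol mouse 2 lay among the saline mice. *Arrdc2* showed the same split, at 7.43, 8.60 and 10.8 CPM in saline and 8.55, 23.4 and 27.3 CPM in ethanol (log2 fold change 1.13, edgeR FDR 0.502, DESeq2 FDR 0.0997). *Plin4* (a lipid droplet protein), *Map3k6*, *Sult1a1*, *Cdkn1a* (the cell cycle inhibitor p21), *Tsc22d3* and *Fam107a* were the others, with log2 fold changes of 1.40, 0.96, 0.72, 0.59, 0.56 and 0.32. The edgeR FDRs of these 6 genes were 0.479 to 0.630 and their DESeq2 FDRs 0.310 to 0.597, and the groups overlapped for *Plin4* (6.14, 14.6 and 22.2 CPM in saline, 20.4, 41.4 and 54.1 CPM in ethanol) and for *Tsc22d3*. Without ethanol mouse 5 the log2 fold change of *Cdkn1a* was 0.36. That mouse was also highest for *Sult1a1* (5.75, 6.04 and 6.59 CPM in saline, 7.74, 7.30 and 15.3 CPM in ethanol). *Per1*, *Klf9* and *Nfkbia* had log2 fold changes of -0.09, 0.01 and 0.01. In all, 2 of the 16 were below 0, and the lowest stood at -0.191. Only 1 of the 16 was cortex-higher. Myelin markers divided the ethanol mice as *Sgk1* and *Arrdc2* did, with a sum at the saline level in mouse 2 and above it in mice 3 and 5, and oligodendrocyte precursor markers summed to 218, 232 and 209 CPM in saline and to 220, 292 and 303 CPM in ethanol. Their part in the glucocorticoid values was not tested. Of 7 genes for the corticosteroid receptors and their co-chaperones, 0 were higher at an unadjusted p below 0.05 and 1, the mineralocorticoid receptor *Nr3c2*, was lower (log2 fold change -0.27, edgeR FDR 0.668).

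Metallothionein and zinc genes went both ways. *Mt2* (ENSMUSG00000031762; chromosome 8, 94899292 to 94900192) read 79.7, 73.5 and 66.8 CPM in saline and 86.5, 104 and 133 CPM in ethanol (log2 fold change 0.56, SE 0.15, edgeR FDR 0.423, DESeq2 FDR 0.0991). *Mt1*, its neighbour and close paralog, read 151, 133 and 127 CPM in saline and 147, 182 and 199 CPM in ethanol (log2 fold change 0.36, SE 0.13, edgeR FDR 0.539). In both, ethanol mouse 2 was the lowest of its group. *Slc30a3*, which loads zinc into glutamatergic vesicles, read 4.46, 28.7 and 22.0 CPM in saline and 1.91, 0.721 and 2.59 CPM in ethanol (log2 fold change -3.35, SE 0.62, edgeR FDR 0.175). It and *Slc39a10*, a zinc importer, were cortex-higher and were the 2 members of this list of 8 that were lower at an unadjusted p below 0.05. *Slc39a14* also had a negative log2 fold change, -0.24, and the list median was 0.06, or -0.00145 without ethanol mouse 2, when edgeR called 2 higher and 2 lower.

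**Figure D4:**
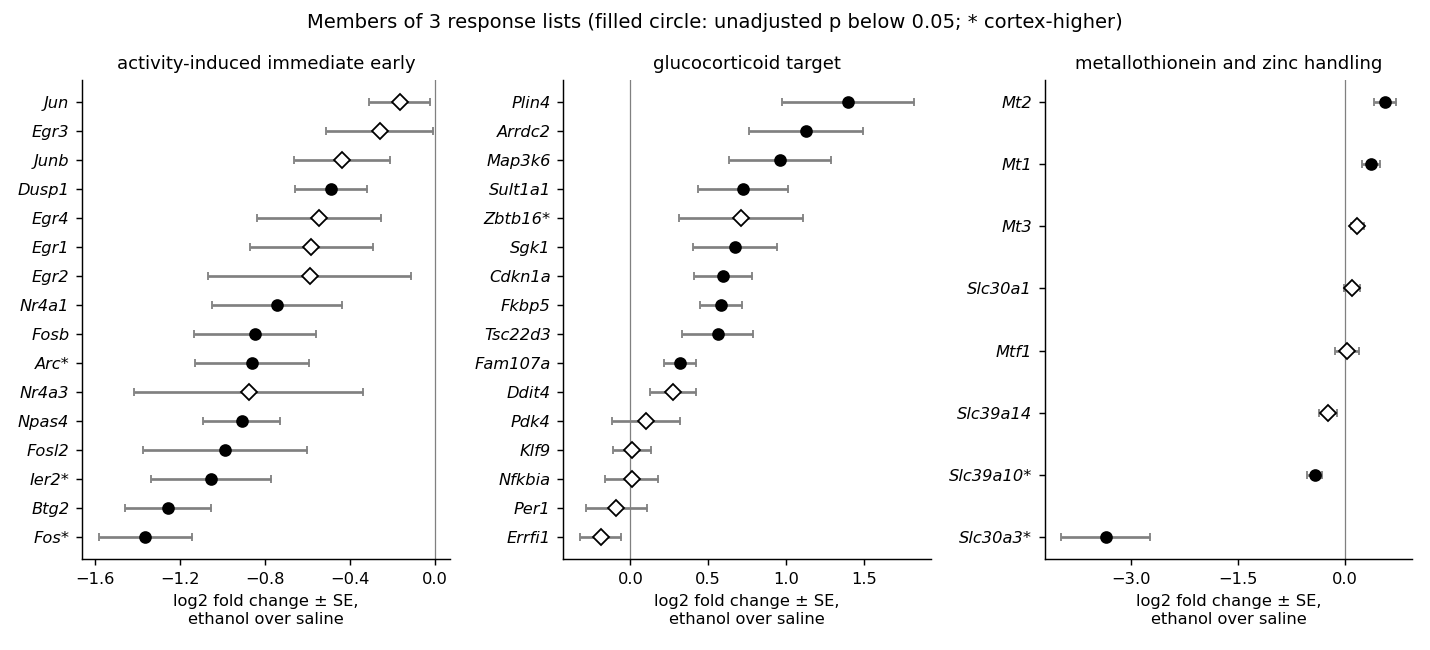
Log2 fold change ± SE, ethanol over saline, of each member of 3 response lists. Filled circles have an unadjusted p below 0.05 and an asterisk marks a cortex-higher gene. All 16 immediate early genes lie below 0, 14 of 16 glucocorticoid targets lie above 0, and the zinc list is split.

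Few receptor and transmitter genes reached an unadjusted p of 0.05. Of 16 dopamine signalling genes tested 1 was higher, *Ddc*, the decarboxylase of dopamine synthesis, at 9.31, 12.3 and 9.19 CPM in saline and 12.2, 15.6 and 23.6 CPM in ethanol (log2 fold change 0.75, SE 0.24, edgeR FDR 0.506). Of 8 opioid peptide and receptor genes and 12 GABA-A receptor subunits, 0 reached an unadjusted p of 0.05, with medians of 0.18 and -3.5e-05. Without ethanol mouse 2 the opioid median was -0.0143 and the dopamine median went from 0.091 to -0.00494, with 1 dopamine gene called higher by edgeR. Of 15 ionotropic glutamate receptor subunits 3 were lower at that p, and the median was -0.0359, or 0.0116 without ethanol mouse 2, when edgeR called 3 of the 15, all lower. *Grin2a*, an NMDA receptor subunit and cortex-higher, read 110, 125 and 130 CPM in saline and 104, 71.0 and 63.4 CPM in ethanol (log2 fold change -0.61, SE 0.17, edgeR FDR 0.428, DESeq2 FDR 0.0831). *Gria3* and *Grik3*, an AMPA and a kainate receptor subunit that are not cortex-higher, had -0.44 and -0.38. The groups did not overlap for these 3 of 15, against 6.61% of all genes in that direction, with ethanol mouse 2 nearest to saline for *Grin2a* and *Gria3*.

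Glial and blood markers varied between mice. Of 11 myelin genes 10 had a positive log2 fold change, with a median of 0.32. At an unadjusted p below 0.05 4 were higher, *Mal*, *Mobp*, *Cnp* and *Cldn11* (log2 fold changes 0.45, 0.43, 0.39 and 0.36). With all 6 mice edgeR called 0 of the 11 (smallest FDR 0.430). Without ethanol mouse 2 the median was 0.49 and edgeR called 7, all higher. Of 4 oligodendrocyte precursor genes 2 were higher at that unadjusted p, and of 8 astrocyte genes 3 (medians 0.30 and 0.16, and 0.432 and 0.295 without ethanol mouse 2, when edgeR called 1 and 3, all higher). All 4 precursor genes and 7 of the 8 astrocyte genes had a positive log2 fold change, and with all 6 mice edgeR called 0. The astrocyte sums were not higher, at 2290, 2137 and 2229 CPM in saline and 2294, 1942 and 2087 CPM in ethanol. *Slc1a2*, 62.7% of that list's CPM, read 1537, 1385 and 1473 CPM in saline and 1543, 1124 and 1073 CPM in ethanol. *Agt*, angiotensinogen, which marks astrocytes of some regions more than others, ranged from 2.58 to 18.7 CPM in saline and from 4.39 to 70.4 CPM in ethanol, so that its groups overlapped. Of 5 red blood cell genes 4 were higher at that unadjusted p and edgeR called 0 (median 0.68), and without ethanol mouse 2 the median was 0.27. Their globin genes are near-identical pairs to which the same read pairs may be counted. Endothelial, mural, microglial and meningeal markers had 1, 0, 1 and 1 members at an unadjusted p below 0.05 of 8, 7, 10 and 8. The endothelial median was -0.05, and -0.21 without ethanol mouse 2.

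The promoters of the members that the immediate early and metallothionein results turn on were searched for the element each family is known to be driven through. They are the 250 bases before the RefSeq start of the gene (GRCm38.p6 table, each found as an exact match in GRCm39), read 5′ to 3′ on the strand of the gene, and capitals mark matches on either strand. For *Btg2*, *Fos* and *Npas4* the letters searched were TGACGTCA, the full cyclic AMP response element, which occurs in 1.55% of 32851 promoters of this length. For *Mt2* they were TGCNCNC, which is looser than the core of the metal response element, where the fourth base is a purine. It occurs in 44.4% of promoters, so that a match is common and need not be the element. The coordinates are chr1:134006894-134007143 (minus strand) for *Btg2*, chr12:85520414-85520663 (plus) for *Fos*, chr19:5040000-5040249 (minus) for *Npas4* and chr8:94898996-94899245 (plus) for *Mt2*.
Btg2: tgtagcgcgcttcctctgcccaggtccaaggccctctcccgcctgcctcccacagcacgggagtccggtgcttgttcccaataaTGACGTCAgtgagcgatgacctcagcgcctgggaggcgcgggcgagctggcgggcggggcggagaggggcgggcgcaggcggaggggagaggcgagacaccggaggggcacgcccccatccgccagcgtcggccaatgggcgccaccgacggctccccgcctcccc
Fos: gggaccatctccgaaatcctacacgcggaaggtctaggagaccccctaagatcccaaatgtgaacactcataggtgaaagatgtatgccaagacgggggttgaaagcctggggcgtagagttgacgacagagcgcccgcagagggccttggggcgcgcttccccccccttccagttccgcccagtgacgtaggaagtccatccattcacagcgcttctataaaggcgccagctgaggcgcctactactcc
Npas4: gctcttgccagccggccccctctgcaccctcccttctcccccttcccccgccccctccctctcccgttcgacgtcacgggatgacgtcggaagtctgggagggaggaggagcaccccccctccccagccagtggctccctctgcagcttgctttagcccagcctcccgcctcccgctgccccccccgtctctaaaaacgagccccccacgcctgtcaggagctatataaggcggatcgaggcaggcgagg
Mt2: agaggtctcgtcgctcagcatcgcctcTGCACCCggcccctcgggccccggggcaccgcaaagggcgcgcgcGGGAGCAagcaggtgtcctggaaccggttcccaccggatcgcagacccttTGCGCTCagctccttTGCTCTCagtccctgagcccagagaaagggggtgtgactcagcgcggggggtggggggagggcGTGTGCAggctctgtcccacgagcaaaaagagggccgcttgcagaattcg

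*Btg2* had 1 match, beginning 166 bases before the start, and *Mt2* had 5, beginning 223, 178, 128, 113 and 50 bases before it. The windows of *Fos* and *Npas4* did not hold the 8 letters. Both hold TGACGT, the start of that string, and partial forms of the element were not counted. Of 16 immediate early genes 12 had a promoter in the table, 16 promoters in all, and 2 of these, of *Dusp1* and *Btg2*, had a match. The glucocorticoid receptor palindrome, searched as GNACA, any 3 bases, then TGTNC, occurs in 0.387% of promoters. Of 16 glucocorticoid targets 15 had a promoter, 27 in all, and 4 of these 27 had a match, those of *Sgk1*, *Map3k6* and *Fam107a*. The letters TGCNCNC were found in 5 of the 9 promoters of 7 of the 8 zinc genes, those of *Mt1*, *Mt2*, *Mt3*, *Slc30a1* and *Slc30a3*. Genes with several promoters have more chances of a match, and counted by gene, with a match in any promoter, the cyclic AMP, glucocorticoid and metal letters occur in 1.77, 0.44 and 47.2% of 27025 genes. A match is a string of letters in a window and was not tested as a binding site.

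At the isoform level edgeR called 249 of 106721 isoforms (0.233%), 57 that rose and 192 that fell, and DESeq2 called 756 (0.82%). Without saline mouse 6 or ethanol mouse 3 edgeR called 0, and without ethanol mouse 2 it called 1531. Isoforms of a gene share read pairs, so these are not independent. The 249 calls belonged to 75 genes, 3 with rises, 72 with falls and 0 with both, of which 52 were cortex-higher and 23 other genes. The 8 genes called at the gene level held 37 of them, and the other 67 genes had called isoforms without a gene call.

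The rises that passed edgeR in the VS were all of isoforms. *2610035D17Rik* had 54 of the 57, with log2 fold changes of 0.885 to 1.08, and several of them had the same CPM in each library. *Camk1g-201*, a coding isoform, rose from 11.3, 12.0 and 13.6 CPM to 18.2, 22.0 and 21.1 CPM (log2 fold change 0.73, SE 0.12, edgeR FDR 0.0635), and *Camk1g-204* by 0.73 with the same FDR. *Lamp5-204* rose from 5.52, 6.73 and 5.00 CPM to 9.55, 10.96 and 9.01 CPM (log2 fold change 0.78, SE 0.14, edgeR FDR 0.0763). *Fkbp5* had no call among its isoforms, where the nearest was *Fkbp5-211*, a transcript with no defined coding sequence (log2 fold change 0.76, SE 0.15, edgeR FDR 0.115), and the coding isoform *Fkbp5-201* had 0.57 (edgeR FDR 0.256). Both *Mt2* isoforms had 0.53 to 0.54 (edgeR FDRs 0.341 and 0.353).

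Falls at the isoform level were led by the genes called above, with *Scube1-204* at a log2 fold change of -2.70, *Sel1l3-201* at -1.47 and *B3galt2-201* at -1.19 (edgeR FDR 0.0246 for each). Cortex-higher genes without a gene call were among them: *Smim43-203* fell by 3.29, *Tbr1-202* by 3.22 and *Slc17a7-203* by 3.58 on the log2 scale (edgeR FDRs 0.0252, 0.0252 and 0.0495). Immediate early genes also passed here. *Fos-201* fell by 1.40 and *Btg2-201* by 1.28 on the log2 scale (edgeR FDR 0.0495 for both), and the 3 called isoforms of *Npas4* fell by 0.937 to 0.946 (best edgeR FDR 0.0635). *Bdnf*, a neurotrophin induced by activity and made by cortical projection neurons, had 11 called isoforms between -2.76 and -2.73. It was cortex-higher, and its gene had an edgeR FDR of 0.185.

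The dorsal striatum (DS) of acutely injected mice had the same library kit and sequencing platform as the VS and gave a side-by-side reading. Saline mice 2, 4 and 6 and ethanol mice 3 and 5 gave both tissues, so the comparisons share mice. In DS edgeR called 5.15% of genes, and 7 of the 8 VS genes were called, all 8 lower. *Neurod2* had a log2 fold change of -3.34 in DS (SE 0.40, edgeR FDR 0.00048), *Scube1* -2.40, *Nr4a2* -2.67 and *B3galt2* -1.07, beside -3.57, -2.71, -3.02 and -1.17 in VS. *Frzb* was the exception, at -1.13 in DS (edgeR FDR 0.125) and -2.75 in VS. *Fkbp5* was 0.80 in DS (edgeR FDR 0.000253) and 0.58 in VS, *Camk1g* 0.70 (edgeR FDR 0.00877) and 0.75, *Mt2* 0.35 (edgeR FDR 0.0321) and 0.56, and *2610035D17Rik* 0.32 (edgeR FDR 0.401) and 0.91.

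A test of the difference itself, the interaction of region and treatment, gave 0 calls among 21142 genes (0%), with 1088 at an unadjusted p below 0.05 and 11 calls by DESeq2, and with 116 edgeR calls when VS ethanol mouse 2 was left out. The smallest FDR was that of *Pde1a*, a calmodulin-dependent phosphodiesterase, whose log2 fold change was -0.31 in VS and -1.27 in DS, a difference of 0.95 (SE 0.16, edgeR FDR 0.504). *Dnajb2* and *Gpr17*, a receptor of oligodendrocyte precursors, came next with differences of 0.58 and 0.56. For the 8 calls and for *Fkbp5*, *Mt2* and *Camk1g* the interaction did not pass, which does not show that the regions respond alike. With mouse as a block, so that each mouse's VS was set against its own DS, edgeR called 50 genes (0.236%). Ethanol mouse 2 then drops out, having no DS library, as does ethanol mouse 4, having no VS library. The log2 fold change was more positive in VS for 30 and more negative for 20, 17 were cortex-higher, and 0 were VS calls. *Car10* differed by 1.78 (edgeR FDR 0.0142) and *Grm2*, a presynaptic glutamate receptor, by 3.83 (edgeR FDR 0.0406). *Pdyn*, which encodes the dynorphins, differed by -1.04 (edgeR FDR 0.0821), and without the block by -0.50 (edgeR FDR 0.953). In the separate fits of each region, *Car10* stood at -0.41 in VS and -1.73 in DS. *Grm2* stood at -0.27 and -2.84, and *Pdyn* at 0.19 and 0.69, so the larger value was that of DS for each. Myelin genes *Cnp*, *Mag*, *Mal*, *Mbp* and *Cldn11* were among the 50 at 0.66, 0.72, 0.67, 0.60 and 0.77. In VS the myelin sum was high in ethanol mice 3 and 5, the ethanol mice in this fit.

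VS libraries of mice injected daily (chronic) allowed the same reading across paradigms. EdgeR called 0% of genes in that chronic comparison. All 8 acute calls had a negative log2 fold change there, from -0.84 for *Pcsk5* to -3.94 for *Neurod2*, and 0 were called (edgeR FDRs 0.238 to 0.395). *Fkbp5* was 0.57 after chronic and 0.58 after acute ethanol, *Camk1g* 1.03 and 0.75, and *2610035D17Rik* -0.02 and 0.91. The interaction of paradigm and treatment gave 0 calls among 20901 genes (0%), with 965 at an unadjusted p below 0.05 and 4 calls by DESeq2. *Neat1*, a nuclear long noncoding RNA, came nearest, with log2 fold changes of 0.11 after acute and -1.12 after chronic ethanol, a difference of 1.23 (SE 0.19, edgeR FDR 0.298).

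**Figure D5:**
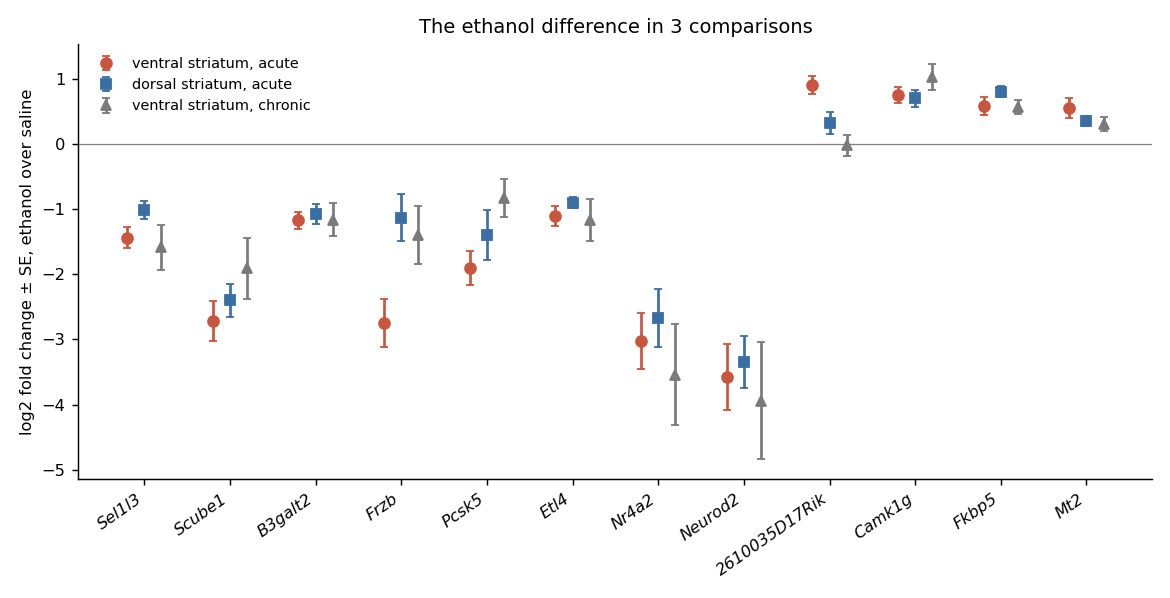
Log2 fold change ± SE, ethanol over saline, of the 8 called genes and 4 genes with higher values, in VS after acute ethanol (red circles), DS after acute ethanol (blue squares) and VS after chronic ethanol (grey triangles). The 8 calls lie below 0 in all 3 comparisons, and *2610035D17Rik* is at 0.91, 0.32 and -0.02.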

How the data were processed

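Raw gene and isoform counts, as deposited, were made by the authors. They trimmed reads with Cutadapt 5.0 (at least 15 bases kept), aligned them to GRCm39 with STAR 2.7.10a (up to 20 places) and counted read pairs on Ensembl exons with featureCounts 2.0.6 as reverse-stranded. Pairs mapping to several places or features were counted for each, so paralogs, overlapping genes and isoforms share pairs. VS libraries came from a directional kit, cortex libraries from one that keeps no strand.

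From these counts, edgeR 4.0.16 (quasi-likelihood F test, TMM, limma 3.58.1, R 4.3.3) was fitted to the 6 VS libraries on features reaching 5 counts in 2 or more samples of either group, with Benjamini-Hochberg adjustment over all features tested. Features with an FDR below 0.1 were called. DESeq2 1.42.0, the study's tool, was an alternative. DS and VS libraries were paired by the mouse number in the labels. Interactions used the 12 acute DS and VS libraries or the 12 VS libraries. Classes added 0.5 CPM to both means. Genes are named if called, if among the 8 smallest p per class and direction with a mean count of 10 or more and groups that do not overlap, or if a response list member with an unadjusted p below 0.05, with *Fkbp5*, *Mt2* and *Camk1g*. One gene that this rule selects is not reported here. The members, the 34 lists and the tests were chosen with earlier results of these data known. The members' replicates are separate mice. Reads have no molecular identifiers, so the totals of 10142093 to 18106625 counts bound counting error only.

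Tested on simulated data with 200 genes changed, the edgeR test of the VS libraries found 89% of the 100 with a log2 fold change of 1.5 and 60% of the 100 with 0.75, and 12.9% of what it called was unchanged. DESeq2 found 91% and 67%, and 21.4% of what it called was unchanged. The VS against DS interaction test called 75.5% of 200 genes changed by 1.5, and the acute against chronic one 70%. The changed genes were drawn from those with higher counts. Genes were simulated independently, with no shift shared by the genes of a mouse, so these shares may not hold for the real libraries.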

Additional observations from a re-analysis of the deposited data

Results flagged for a closer look

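One result met a rule for a closer look. The ethanol difference was tested between VS and DS with mouse as a block, and edgeR called 50 genes, against 0 without the block. This fit rests on saline mice 2, 4 and 6 and ethanol mice 3 and 5, since ethanol mice 2 and 4 gave 1 tissue each. Of the 50 genes 23 were also called for ethanol in DS and 0 in VS. The fit without the block gave 116 calls when VS ethanol mouse 2 was left out, so its absence moves the count as the block does. Which of the block and the missing mouse gives the 50 calls was not tested.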

How the results depend on the processing

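Of the 60 named genes, none changed sign under any alternative. They were named for a small p or for groups that do not overlap, so the constant sign was largely fixed by that choice. Of their FDRs, 606 kept their side of the threshold, while 100 passed it newly and 45 no longer did. The 8 gene calls became 178 with DESeq2, 536 with no low-count filter, 3 with at least 10 counts in every sample, 0 with all 4 VS groups in one fit and 1 without the cortex-higher genes. Leaving out a mouse gave 0 to 290 calls: 290 without ethanol mouse 2, 79 without saline mouse 2, 1 without ethanol mouse 5 and 0 without any other. The 5 cortex-higher calls became 101 with DESeq2 (0 to 78 with a mouse left out), and the 3 other calls 77 (0 to 212). The 249 isoform calls became 756 with DESeq2, 2222 with no filter, 131 with all 4 groups, and 0 to 1531 with a mouse left out (1531 without ethanol mouse 2, 0 without saline mouse 6 or ethanol mouse 3).

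The 0 calls of the VS against DS interaction became 11 with DESeq2, 50 with mouse as a replicate block, and 0 to 116 with a library left out (116 without VS ethanol mouse 2). The pairing comes from the labels, which give both tissues the same mouse. The 0 calls of the acute against chronic interaction became 4 with DESeq2 and 0 to 2 with a library left out. The cause of these changes was not tested. With 3 mice a group, the count of calls rests on single mice, and a gene outside the calls is not shown to be unchanged.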

Other observations

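Several gene groups did not separate the treatments. Of 16 circadian clock genes 1, *Bhlhe41*, a transcriptional repressor of the clock, was higher at an unadjusted p below 0.05 (57.4, 62.6 and 72.2 CPM in saline, 97.6, 89.5 and 73.0 CPM in ethanol, log2 fold change 0.43, edgeR FDR 0.479), with a list median of 0.06 (-0.0341 without ethanol mouse 2). Of 11 heat shock chaperones 0 passed that p (median 0.0239, and -0.261 without ethanol mouse 2), and of 12 unfolded protein response genes 1, *Atf4*, was lower (log2 fold change -0.32, edgeR FDR 0.506), with a median of 0.153 (-0.123 without ethanol mouse 2). Of the 10 genes of ethanol and acetate metabolism 8 were tested, and 0 passed (median 0.07). The liver enzymes *Adh1* and *Cyp2e1* did not pass the filter on low counts. Of 13 mitochondrially encoded subunits 0 passed (median 0.00521, and -0.19 without ethanol mouse 2).

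Other neuron types and neighbouring tissue varied between mice. Of 4 cholinergic genes 1, *Slc18a3*, the vesicular acetylcholine transporter, was higher at an unadjusted p below 0.05 (6.34, 5.12 and 2.78 CPM in saline, 8.90, 10.6 and 5.69 CPM in ethanol, log2 fold change 0.84, edgeR FDR 0.621), and the list median was 0.63. Of 6 interneuron genes *Vip*, *Sst* and *Npy* were lower and *Lhx6* higher at an unadjusted p below 0.05 (log2 fold changes -1.73, -0.39, -0.42 and 0.57). EdgeR called 0 of the 6 (smallest FDR 0.494), and 1, lower, without ethanol mouse 2. *Vip* was 10.2 CPM in saline mouse 6 and at most 4.94 CPM elsewhere. Choroid plexus markers summed to 240 CPM in saline mouse 6 and 208 CPM in ethanol mouse 5 and to 36.3 to 49.0 CPM in the others. Thalamic markers summed to 108 CPM in ethanol mouse 5 and to 28.3 to 62.8 CPM in the others. Of the 6 choroid plexus genes tested 1, and of the 5 thalamic genes 0, had an unadjusted p below 0.05. Of 6 ependymal and 3 tested dentate granule genes 0 did.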
